A study of Mus musculus with 36 samples.

Results

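The transcripts of 10 genes that act in mitosis were followed through RNA sequencing of stem and progenitor cells of the mouse bone marrow (BM): Mki67, Top2a, Cdk1, Ccnb1, Plk1, Aurka, Aurkb, Birc5, Bub1 and Cdc20. They were chosen by name as familiar genes of cell division, and each symbol led through a mouse gene table to 1 Ensembl identifier, which gave 10 of the 38887 genes in the count table. The cells were LT-HSC, long-term hematopoietic stem cells sorted as lineage-negative cells with Sca-1, c-kit and CD150 but without CD48 on their surface, and HPC-1, multipotent progenitors that share Sca-1 and c-kit but lack CD150 and carry CD48, which the deposited labels call ST-HSC. For each library 5000 sorted cells gave total RNA, which was copied with a stranded kit for small inputs.

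All mice lacked Apoe on a C57BL/6 background, both sexes were used, and all were fed a Western diet for 12 weeks from 8 weeks of age. They differed in Il27ra, which encodes the receptor subunit for the cytokine IL-27: it was intact (Apoe−/−, called WT here), heterozygous (Il27ra+/−) or deleted in the whole animal (Il27ra−/−). An implanted pump delivered PBS or angiotensin II (Ang II), a peptide hormone that drives aortic aneurysm in this model, over the last 2 weeks. Of LT-HSC there were 17 libraries: 1 WT, 3 Il27ra+/− and 3 Il27ra−/− after PBS, and 2 WT, 4 Il27ra+/− and 4 Il27ra−/− after Ang II. Of HPC-1 there were 19 libraries: 2 WT, 3 Il27ra+/− and 3 Il27ra−/− after PBS, and 3 WT, 4 Il27ra+/− and 4 Il27ra−/− after Ang II. The labels do not say that the libraries of a group came from separate mice. The study does give the sizes of its LT-HSC and HPC-1 groups as mice, with 2 WT, 4 Il27ra+/− and 3 Il27ra−/−. These sizes do not match all groups of libraries here. Each p-value below measures the spread between these samples, which may be technical in part.

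A cell that divides copies its DNA and then parts the copies in mitosis, and most genes of mitosis are transcribed in a wave that builds up through G2 phase and ends after division. The kinase Cdk1 with cyclin B1 (Ccnb1) starts mitosis, further kinases build and correct the spindle, and the anaphase-promoting complex with its activator Cdc20 ends it by destroying cyclin B1. Cells at rest outside the cycle hold few of these transcripts, and LT-HSC are known as mostly resting cells that feed more actively dividing progenitors such as HPC-1.

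The libraries held 1980283 to 6861078 counts, with a median of 3139364, and 25 of the 36 held fewer than 4 × 10⁶. Levels are given as CPM, the count of a gene per 10⁶ counts of its library, after scaling by edgeR's trimmed mean of M values, and a floor of 3 counts was worth 0.398 to 1.49 CPM, depending on the library. All 10 mitotic genes were counted in all 36 libraries and passed the filter on low counts in both cell types. Their smallest count was 9, for Bub1 in the PBS WT LT-HSC library. Floors of this kind cover counting error only, because reads without molecular tags are not independent molecules.

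The deleted gene was examined before the mitotic genes. In LT-HSC, Il27ra stood at 17.1 CPM in the PBS WT library and at 42.9 and 51.8 CPM in the Ang II WT libraries. In Il27ra+/− LT-HSC it stood at 42.7, 24.1 and 25.6 CPM after PBS and at 30.2, 25.5, 27.1 and 32.8 CPM after Ang II, and in Il27ra−/− LT-HSC at 9.42, 6.94 and 16.3 and at 16.3, 11.7, 16.2 and 19.3 CPM. Every Il27ra−/− LT-HSC library thus lay below every Il27ra+/− LT-HSC library, while the lone PBS WT library lay within the Il27ra−/− range. In HPC-1 it was 8.26 and 11.9 CPM in PBS WT, 10.2, 8.88 and 6.07 CPM in Ang II WT, 15.6, 11.1 and 9.97 CPM in PBS Il27ra+/−, 5.46, 9.58, 14.3 and 16.5 CPM in Ang II Il27ra+/−, 6.69, 11.1 and 8.35 CPM in PBS Il27ra−/− and 6.63, 5.91, 4.64 and 9.04 CPM in Ang II Il27ra−/−, and the genotypes overlapped. Whether the counted part of the transcript lies outside the deletion is not given in the sources used here, so the counts that remain check the labels of Il27ra−/− libraries only in part.

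The sort was checked on 9 markers of LT-HSC (among them Slamf1, which encodes CD150, and the transcription factor gene Mecom) and 8 of HPC-1 (among them Cd48, Flt3 and Mpo). The LT-HSC markers summed to 1722 to 2872 CPM in 15 of the 17 LT-HSC libraries and to 693 to 1381 CPM in HPC-1. The HPC-1 markers summed to 55.4 to 384 CPM in those 15 libraries and to 3849 to 7473 CPM in HPC-1. The remaining LT-HSC libraries stood apart. PBS Il27ra−/− LT-HSC replicate 2 held 909 CPM of LT-HSC markers and 5064 CPM of HPC-1 markers, both within the HPC-1 range, with Cd48 at 62.6 CPM and Slamf1 at 2.36 CPM. Ang II Il27ra−/− LT-HSC replicate 2 lay between the cell types in these markers, with 1583 and 1476 CPM. It also held 7076 CPM of granulocyte markers, against 29.1 to 1249 CPM in the 15 (median 44.1). Its erythroid markers summed to 2861 CPM, against 20.1 to 3081 CPM in the 15 (median 84.3). Both libraries keep their labels below, the comparisons of LT-HSC are given with them and without them, and other values use all libraries unless stated. PBS WT LT-HSC has 1 library and therefore enters no comparison within LT-HSC.

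All 10 mitotic genes were lower in LT-HSC than in HPC-1. The comparison asked how the resting and the more active population differ when each combination of agent and genotype weighs the same, in 1 edgeR quasi-likelihood model of all 36 libraries. A gene is called where its p-value, adjusted by Benjamini-Hochberg over all genes tested, is under 0.05. 10 of 10 members were called, all lower, beside 6435 of 18013 genes (35.7%), of which 3467 were lower and 2968 higher. The median log2 fold change of the members was −0.91, from −1.46 for Bub1 to −0.47 for Cdc20, against −0.01 over all genes tested. Without the LT-HSC libraries that stood apart the count was again 10 of 10 and the median −1.09, beside 6775 of 17945 genes called (37.8%) and an all-gene median of −0.02. In bulk samples fewer dividing cells and less of each transcript per dividing cell cannot be told apart.

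DESeq2, run on the same counts, called 9 of 10 members and 6876 genes, with Cdc20 the exception (adjusted p = 0.0812). With it the median over all genes was 0.10, a shift of 0.109 on the log2 scale, and the members' median was −0.83. The direction of all 10 members was the same with trimmed-mean, upper-quartile and DESeq2 scaling.

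**Figure D1:**
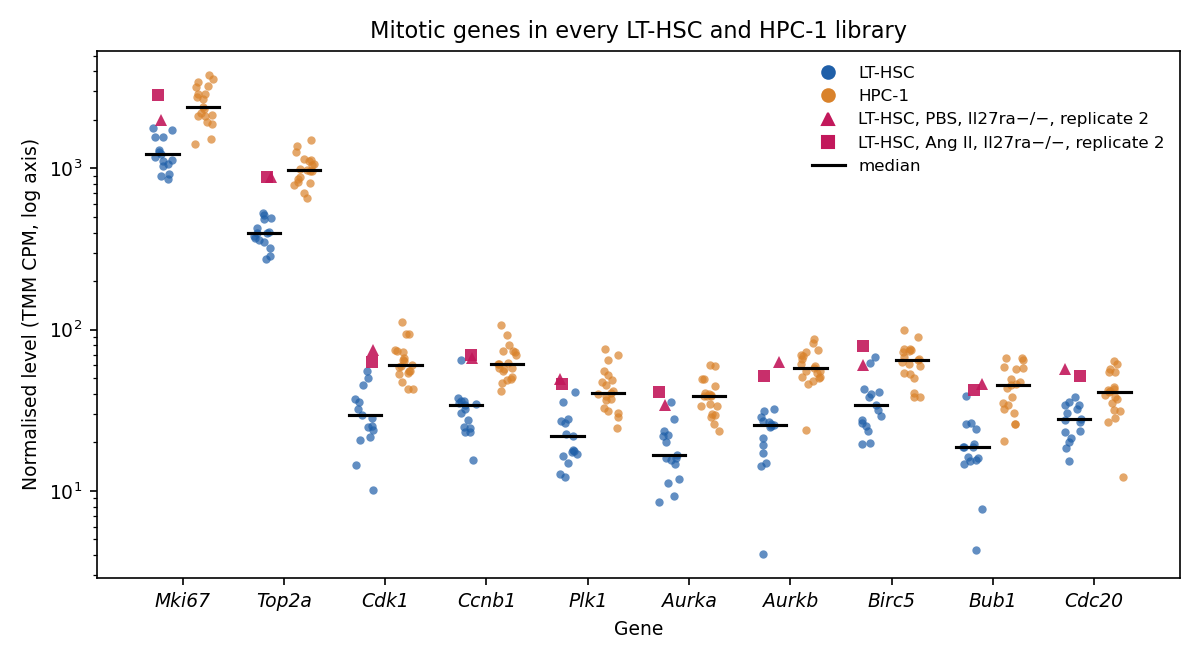
Level of each of the 10 mitotic genes in every library, in CPM on a logarithmic axis, with LT-HSC and HPC-1 side by side. Each point is 1 library, each black bar is the median of all libraries of a cell type, and the LT-HSC libraries numbered 2 of PBS and Ang II Il27ra−/− mice are marked apart. For Top2a the 15 other LT-HSC libraries reach at most 526 CPM and HPC-1 starts at 653 CPM, whereas for Cdc20 the ranges overlap.

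Mki67 and Top2a act on the chromosomes themselves. Mki67 encodes Ki-67, a protein that coats mitotic chromosomes and is the usual marker of cycling cells. It ranged from 857 to 1790.4 CPM with a median of 1169 CPM in the 15 LT-HSC libraries, and from 1418 to 3812 CPM with a median of 2401 CPM in the 19 HPC-1 libraries. PBS Il27ra−/− LT-HSC replicate 2 held 1985 CPM and Ang II Il27ra−/− LT-HSC replicate 2 held 2860.2 CPM, the highest of all LT-HSC libraries. Of the 15, 4 lay above the lowest HPC-1 library and 0 above the HPC-1 median. The log2 fold change was −0.94 ± 0.19 (estimate ± SE, n = 17 and 19), 1.92-fold lower in LT-HSC, with an edgeR adjusted p of 0.000274, and it was −1.08 ± 0.15 without the libraries that stood apart. Top2a encodes topoisomerase II alpha, which untangles the copied DNA so that it can be parted. Its levels were 273 to 526 CPM (median 399) in the 15 LT-HSC libraries and 653 to 1493 CPM (median 971) in HPC-1, with 879 and 880.4 CPM in the Il27ra−/− LT-HSC libraries numbered 2. Here the 15 LT-HSC libraries and the HPC-1 libraries did not overlap, which held for no other member, while the Il27ra−/− libraries numbered 2 lay inside the HPC-1 range. Top2a fell by 1.15 ± 0.17 on the log2 scale (edgeR adjusted p = 7.19e-06) and by 1.33 without those libraries.

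Cdk1 and Ccnb1 form the kinase that starts mitosis. Cdk1, its catalytic subunit, ranged from 10.1 to 55.5 CPM (median 28.2) in the 15 LT-HSC libraries and from 42.8 to 111 CPM (median 60.6) in HPC-1. PBS Il27ra−/− LT-HSC replicate 2 held 74.4 and Ang II Il27ra−/− LT-HSC replicate 2 62.6 CPM, both above the HPC-1 median, which none of the 15 reached. Its log2 fold change was −0.95 ± 0.21 (1.93-fold lower, edgeR adjusted p = 0.000702), and −1.14 ± 0.17 without them. Ccnb1, the cyclin that switches Cdk1 on, lay between 15.5 and 65.3 CPM (median 32.1) in the 15 LT-HSC libraries and between 41.7 and 106 CPM (median 60.8) in HPC-1. The LT-HSC library of 65.3 CPM, PBS Il27ra+/− replicate 2, was the only one of the 15 above the lowest HPC-1 library, and it also passed the HPC-1 median, as did the Il27ra−/− libraries numbered 2 with 67.0 CPM after PBS and 69.9 CPM after Ang II. Ccnb1 was lower in LT-HSC by a log2 fold change of −0.79 ± 0.17 (edgeR adjusted p = 0.000425), and by −0.97 ± 0.13 without those.

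Plk1 and Aurka encode kinases of the centrosome and the spindle. Polo-like kinase 1 (Plk1) helps to mature centrosomes and to switch Cdk1 on, and its transcript ranged from 12.2 to 41.0 CPM (median 18.0) in the 15 LT-HSC libraries and from 24.6 to 76.3 CPM (median 40.6) in HPC-1. The Il27ra−/− LT-HSC libraries numbered 2 held 49.2 CPM after PBS and 45.7 CPM after Ang II. For Plk1, 5 of the 15 overlapped with HPC-1 and 1 of them, Ang II Il27ra+/− replicate 1 at 41.0 CPM, lay above the HPC-1 median. The log2 fold change was −0.80 ± 0.21 (edgeR adjusted p = 0.00225) and −0.99 ± 0.17 without the libraries that stood apart. Aurora kinase A (Aurka), which works at the spindle poles, ranged from 8.57 to 35.8 CPM (median 15.9) in the 15 and from 23.4 to 60.3 CPM (median 39.0) in HPC-1, with 34.2 and 41.0 CPM in the Il27ra−/− LT-HSC libraries numbered 2. The highest of the 15 was again Ang II Il27ra+/− replicate 1, at 35.8 CPM, and 3 of the 15 reached into the HPC-1 range. Aurka differed by −0.88 ± 0.20 on the log2 scale (edgeR adjusted p = 0.000684), and by −1.10 ± 0.16 without them.

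Aurkb and Birc5 belong to the chromosomal passenger complex, which corrects wrong attachments of chromosomes to the spindle. Aurora kinase B (Aurkb) is its enzyme, and it ranged from 4.07 to 32.0 CPM (median 25.4) in the 15 LT-HSC libraries and from 23.9 to 87.3 CPM (median 57.9) in HPC-1. PBS Il27ra−/− LT-HSC replicate 2 held 62.6 CPM, above the HPC-1 median, and Ang II Il27ra−/− LT-HSC replicate 2 held 51.4 CPM. The overlap rested on 1 HPC-1 library, Ang II Il27ra+/− replicate 3 at 23.9 CPM, below which 6 of the 15 lay, whereas the other 18 HPC-1 libraries were all above all 15. The log2 fold change was −1.27 ± 0.23, 2.40-fold lower in LT-HSC (edgeR adjusted p = 6.88e-05), and −1.49 ± 0.18 without the libraries that stood apart. Birc5 encodes survivin, which brings the complex to the centromere. It ranged from 19.6 to 68.0 CPM (median 31.7) in the 15 and from 38.1 to 100.2 CPM (median 64.7) in HPC-1, with 60.2 CPM in PBS and 79.0 CPM in Ang II Il27ra−/− LT-HSC replicate 2. In LT-HSC it was high in PBS WT at 61.8 CPM and in PBS Il27ra+/− replicate 1 at 68.0 CPM, and 6 of the 15 overlapped with HPC-1. Birc5 differed by −0.69 ± 0.18 (edgeR adjusted p = 0.00259), and by −0.86 ± 0.14 without them.

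Bub1 and Cdc20 act at the checkpoint that holds anaphase back until all chromosomes are attached, and with all libraries they marked the ends of the range. Bub1, a kinase of the checkpoint at the kinetochore, ranged from 4.28 to 38.7 CPM (median 18.8) in the 15 LT-HSC libraries and from 20.4 to 67.2 CPM (median 45.3) in HPC-1, with 46.4 CPM in PBS and 42.3 CPM in Ang II Il27ra−/− LT-HSC replicate 2. The lowest levels were 4.28 CPM in PBS WT and 7.70 CPM in Ang II WT replicate 1, while Ang II WT replicate 2 at 15.4 CPM lay among the other genotypes, and 4 of the 15 overlapped with HPC-1. Its log2 fold change of −1.46 ± 0.20 (2.74-fold lower, edgeR adjusted p = 4.05e-07) was the largest of the 10, and it was −1.61 ± 0.18 without the libraries that stood apart. That rank depended on the PBS WT LT-HSC library, without which Bub1 was at −1.06 and Top2a largest at −1.15, and on the model. An alternative paired LT-HSC and HPC-1 libraries of equal agent, genotype and replicate number as a block. It also dropped the equal weights of the combinations, so that PBS WT weighed less, and there Bub1 was at −1.04 and Aurkb at −1.28. Cdc20 is the activator of the anaphase-promoting complex that the checkpoint blocks. It ranged from 15.3 to 38.0 CPM (median 27.5) in the 15 and from 12.1 to 63.7 CPM (median 41.0) in HPC-1, and it reached 57.3 and 51.8 CPM in the Il27ra−/− LT-HSC libraries numbered 2. The lowest of all 36 libraries was an HPC-1 library, Ang II WT replicate 3 at 12.1 CPM, but none of the 15 LT-HSC libraries passed the HPC-1 median. Cdc20 had the smallest log2 fold change, −0.47 ± 0.18 (edgeR adjusted p = 0.0444), and −0.64 ± 0.16 (adjusted p = 0.000781) without the Il27ra−/− libraries numbered 2.

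The call of Cdc20 was the only one of the 10 that depended on single libraries. It held when any 1 of 11 libraries was left out: LT-HSC PBS Il27ra+/− replicate 1, PBS Il27ra−/− replicate 2, Ang II WT replicate 1, Ang II Il27ra+/− replicate 1 or Ang II Il27ra−/− replicate 2, or HPC-1 PBS Il27ra+/− replicate 2, Ang II WT replicate 3, Ang II Il27ra+/− replicate 1 or 3, or Ang II Il27ra−/− replicate 1 or 4. Leaving out any of the other 25 libraries ended it, with edgeR adjusted p between 0.00353 and 0.121 over all 36 and a log2 fold change between −0.59 and −0.37. The other 9 members kept their call in each of the 36 fits.

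The lower level in LT-HSC was seen within each combination of agent and genotype. The mean log2 CPM of the 10 genes in LT-HSC minus that in HPC-1 was −1.14 in PBS WT, with 1 LT-HSC library, −0.78 in PBS Il27ra+/− and −0.89 in Ang II Il27ra+/−. It was −1.0 in Ang II WT. In Il27ra−/− mice it was −0.90 after PBS and −1.14 after Ang II, and −1.38 and −1.49 without the LT-HSC libraries numbered 2. All 10 genes were lower in LT-HSC in 5 of the 6 combinations, and 9 of 10 in Ang II WT, where Cdc20 was higher by 0.24. Bub1 differed by −3.11 in PBS WT and −2.05 in Ang II WT, more than in PBS Il27ra+/− (−0.85), Ang II Il27ra+/− (−0.73), PBS Il27ra−/− (−0.87, and −1.34 without replicate 2) and Ang II Il27ra−/− (−0.94, and −1.18 without replicate 2). Top2a ran from −1.25 in PBS Il27ra+/− to −1.13 in PBS WT with all libraries, a narrow range that widened without the LT-HSC libraries numbered 2, to −1.62 in PBS and −1.59 in Ang II Il27ra−/−.

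The levels of the 10 genes were compared with each other as CPM per kb of merged exon length. On that scale Mki67 was highest in HPC-1, with a median of 239, followed by Top2a at 108, and their ranges (141 to 379 and 72.5 to 166) overlapped. The other 8 genes lay far below, none above 34.7 in any HPC-1 library: the medians were 22.0 for Cdc20, 19.7 for Aurkb, 19.02 for Birc5, 18.5 for Plk1, 15.4 for Aurka, 14.4 for Ccnb1, 12.3 for Cdk1 and 10.4 for Bub1. Each of these overlapped with its neighbours in the order. Over all 17 LT-HSC libraries the order began with Mki67 (122), Top2a (44.4) and Cdc20 (14.9) and ended with Cdk1 (5.97) and Bub1 (4.33), as in HPC-1, and the 5 genes between them had medians from 6.62 for Aurka to 10.04 for Birc5.

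Within LT-HSC, no mitotic gene was called between genotypes or between Ang II and PBS. The mean log2 CPM of the 10 genes was 5.54 ± 0.22 (SD, n = 2) in Ang II WT, 5.59 ± 0.27 (n = 4) in Ang II Il27ra+/− and 5.68 ± 0.81 (n = 4) in Ang II Il27ra−/− LT-HSC. After PBS it was 5.96 ± 0.26 (n = 3) in Il27ra+/−, 5.75 ± 0.83 (n = 3) in Il27ra−/− and 5.46 in the WT library. The Il27ra−/− groups were the widest and held the libraries numbered 2, at 6.71 after PBS and 6.74 after Ang II, above all 15 others, which ran from 4.79 in Ang II Il27ra−/− replicate 1 to 6.2 in PBS Il27ra+/− replicate 2. The comparisons below were made in 1 edgeR model of the 17 LT-HSC libraries, over 16365 genes, and those that use the same group share its libraries.

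**Figure D2:**
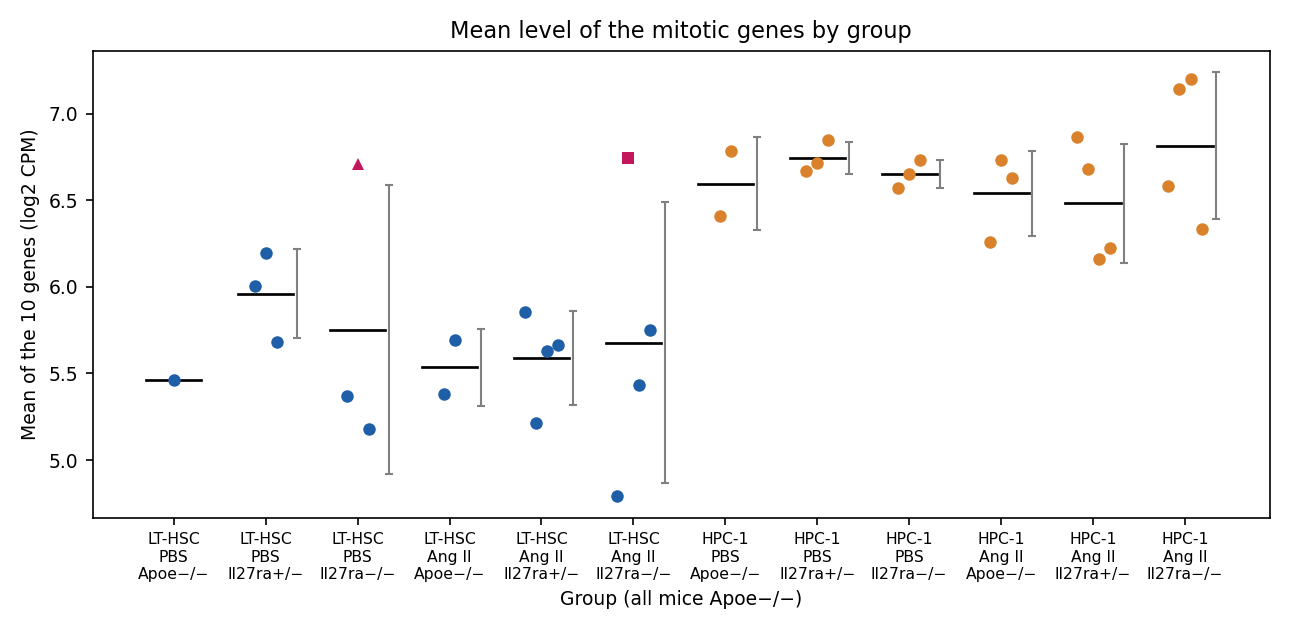
Mean log2 CPM of the 10 mitotic genes in each library, by cell type, agent and Il27ra genotype. Each point is 1 library, each black bar is the mean of its group and each grey bar spans 1 SD on either side, with WT written as Apoe−/−. The Il27ra−/− LT-HSC libraries numbered 2, at 6.71 after PBS and 6.74 after Ang II, lie at the level of HPC-1, which runs from 6.16 to 7.20.

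Ang II Il27ra−/− against Ang II WT LT-HSC asked whether the receptor alters the stem cells under Ang II. edgeR called 0 of 10 members, beside 277 of 16365 genes (1.69%), and DESeq2 also called 0 members, beside 790 genes. The 277 became 713, with 0 members, without the Il27ra−/− libraries numbered 2, and between 98 (without Ang II Il27ra−/− replicate 3) and 627 (without Ang II WT replicate 1) when 1 library was left out. Only Bub1 had an unadjusted p under 0.05, as had 17.7% of all genes. Bub1 stood at 7.70 and 15.4 CPM in WT and at 19.6, 42.3, 18.8 and 26.4 CPM in Il27ra−/−, so that every Il27ra−/− library lay above both WT libraries. Its log2 fold change was 1.22 ± 0.51 (edgeR adjusted p = 0.215), and 0.91 ± 0.42 (adjusted p = 0.212) without the Il27ra−/− libraries numbered 2. Mki67 stood at 1227 and 1562 CPM in WT and at 857, 2860.2, 896 and 1169 CPM in Il27ra−/−: replicates 1, 3 and 4 lay below both WT libraries and replicate 2 far above. Its log2 fold change was 0.07 ± 0.47 with all libraries and −0.52 ± 0.22 (edgeR adjusted p = 0.191) without those numbered 2. The WT libraries themselves differed in Cdk1, at 10.1 and 50.3 CPM, and in Birc5, at 19.7 and 39.8 CPM. Both WT libraries held the Y-linked Ddx3y and little Xist, whereas Il27ra−/− replicates 3 and 4 held high Xist and no Ddx3y. The main model had no term for sex, so genotype and sex were confounded in part.

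The side on which the members lay in that comparison turned with 1 library. All 10 were above 0 with all libraries, with a median of 0.19 against 0.14 over all genes, and 9 of 10 were below 0 without the Il27ra−/− libraries numbered 2, with a median of −0.25 against 0.10, Bub1 being the exception. Leaving out Ang II Il27ra−/− replicate 2 alone gave a median of −0.26, and leaving out Ang II Il27ra−/− replicate 1 alone gave 0.40. The part of the granulocyte and erythroid markers of replicate 2, given above, was not tested. The WT libraries also held markers of intestinal epithelium, summing to 339 and 449 CPM with Dmbt1 most abundant at 124 and 193 CPM and with Phgr1 and Olfm4 at 0, against 10.02 to 34.5 CPM in Il27ra−/−, where Dmbt1 was at 0 in all 4 libraries. Of these markers 8 of 11 tested were called lower in Il27ra−/−, and their part in the values of the mitotic genes was not tested.

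Ang II Il27ra−/− was also set against Ang II Il27ra+/− LT-HSC, with 4 libraries on each side. edgeR called 0 of 10 members and 0 of 16365 genes (0%), no member had an unadjusted p under 0.05, and DESeq2 called 0 members and 2 genes. Top2a stood at 488, 347, 404 and 426 CPM in Il27ra+/− and at 287, 880.4, 319.8 and 399 CPM in Il27ra−/−, with replicate 2 above and replicates 1 and 3 below all Il27ra+/− libraries. Its log2 fold change was 0.19 ± 0.39 with all libraries and −0.32 ± 0.17 without those numbered 2. Aurkb stood at 25.5, 14.97, 27.1 and 28.5 CPM in Il27ra+/− and at 4.07, 51.4, 26.2 and 26.9 CPM in Il27ra−/−, from the lowest to the highest of the 8, with a log2 fold change of 0.17 ± 0.55. The median of the members was 0.18 with all libraries, all 10 above 0, against 0.01 over all genes. Leaving out Il27ra−/− replicate 1 alone raised it to 0.44. It was −0.25 without the Il27ra−/− libraries numbered 2, 9 of 10 below 0, against −0.00212 over all genes. Without them edgeR again called 0 members, and Mki67 alone had an unadjusted p under 0.05, as had 2.49% of all genes (log2 fold change −0.44 ± 0.19, adjusted p = 1).

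Ang II Il27ra+/− against Ang II WT LT-HSC left the members evenly placed. With edgeR 0 of 10 members were called, beside 136 of 16365 genes (0.831%), 0 members had an unadjusted p under 0.05, and DESeq2 called 0 members and 436 genes. The 136 became 357, with 0 members, without the Il27ra−/− libraries numbered 2, and between 53 (without Ang II Il27ra+/− replicate 4) and 565 (without Ang II WT replicate 1) when 1 library was left out. The median of the members was 0.01, with 5 above and 5 below 0, against 0.09 over all genes, and again 0.01 without the Il27ra−/− libraries numbered 2, which enter only through the shared spread. Plk1 stood at 22.6 and 16.4 CPM in WT and at 41.0, 12.7, 17.4 and 27.1 CPM in Il27ra+/−, and Ccnb1 at 35.1 and 36.3 CPM and at 23.1, 24.7, 34.2 and 27.5 CPM. Plk1 spanned the WT values from both sides, whereas each Il27ra+/− library was below both WT libraries for Ccnb1, with a log2 fold change of −0.37 ± 0.51 (edgeR adjusted p = 0.759). Bub1 differed by 0.68 ± 0.50 (adjusted p = 0.55). The WT side is the same pair of libraries with intestinal markers, of which 8 of 11 were again called lower, and their part was not tested. Genotype and sex were again confounded in part, because Il27ra+/− replicates 3 and 4 held high Xist and no Ddx3y.

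After PBS, Il27ra−/− was compared with Il27ra+/− LT-HSC, 3 libraries on each side. With edgeR, 0 of 10 members were called and 0 of 16365 genes (0%), 0 members had an unadjusted p under 0.05, and DESeq2 called 0 members and 1 gene. Cdc20 stood at 34.0, 32.0 and 27.5 CPM in Il27ra+/− and at 23.1, 57.3 and 15.3 CPM in Il27ra−/−, and Ccnb1 at 35.9, 65.3 and 37.8 CPM and at 30.4, 67.0 and 23.2 CPM. For both genes Il27ra−/− replicate 2 was the highest of the 6 libraries and Il27ra−/− replicates 1 and 3 the lowest. Birc5 showed 68.0, 43.1 and 38.4 CPM in Il27ra+/− and 27.4, 60.2 and 25.2 CPM in Il27ra−/−, with Il27ra−/− replicates 1 and 3 again below all Il27ra+/− libraries. With all libraries the median of the members was −0.05, and the log2 fold changes ran from −0.38 for Birc5 to 0.18 for Aurkb. Leaving out Il27ra−/− replicate 3 alone gave a median of 0.21, and leaving out Il27ra−/− replicate 2 alone gave −0.71. Without the libraries numbered 2 all 10 members were below 0 with a median of −0.71, against −0.03 over all genes. In that fit 5 members had an unadjusted p under 0.05, as had 2.09% of all genes: Birc5 (−0.91 ± 0.33), Ccnb1 (−0.81 ± 0.32), Top2a (−0.49 ± 0.21), Aurka (−0.96 ± 0.44) and Cdc20 (−0.72 ± 0.33). None of them was called by edgeR, 0 of 10 (adjusted p = 1 for each), with 2 libraries on the Il27ra−/− side. Of these, PBS Il27ra−/− replicate 3 also held 1249 CPM of granulocyte markers, with Ngp most abundant at 389 CPM, and 3081 CPM of erythroid markers, with Hba-a2 most abundant at 1317 CPM, and none of either list at 0, while replicate 1 held 33.4 and 20.1 CPM. The part of these markers in the members' values was not tested.

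The response of Il27ra+/− LT-HSC to Ang II compared 4 Ang II with 3 PBS libraries. No call was made by edgeR, with 0 of 10 members and 0 of 16365 genes (0%), 0 members had an unadjusted p under 0.05, and DESeq2 called 0 members and 0 genes. All 10 members were below 0, with a median of −0.25 against −0.04 over all genes. Leaving out 1 library moved this median to between −0.41 (without Ang II replicate 1) and −0.13 (without Ang II replicate 2). Ccnb1 went from 35.9, 65.3 and 37.8 CPM after PBS to 23.1, 24.7, 34.2 and 27.5 CPM after Ang II, every Ang II library below every PBS library, and its log2 fold change was −0.77 ± 0.44 (edgeR adjusted p = 0.984). Cdk1 likewise read 45.7, 55.5 and 37.0 CPM after PBS and 20.7, 21.7, 35.5 and 28.2 CPM after Ang II, without overlap, and differed by −0.80 ± 0.55 (adjusted p = 0.994). The share of all genes without overlap is not given here. Aurka, at 22.3, 21.9 and 16.8 CPM and 35.8, 14.6, 15.5 and 15.9 CPM, overlapped because of Ang II replicate 1, and differed by −0.02 ± 0.53. In the fit without the Il27ra−/− libraries numbered 2, whose spread is smaller, the estimates were nearly the same and 2 members had an unadjusted p under 0.05, as had 5.39% of all genes: Ccnb1 (log2 fold change −0.77 ± 0.26) and Birc5 (log2 fold change −0.71 ± 0.27), each with an edgeR adjusted p of 0.875 and 0 members called.

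The response of Il27ra−/− LT-HSC to Ang II compared 4 Ang II with 3 PBS libraries, each side with its library numbered 2. In edgeR 0 of 10 members were called and 0 of 16365 genes (0%), 0 members had an unadjusted p under 0.05 with or without those libraries, and DESeq2 called 0 members and 1 gene. The median of the members was −0.07 with them and 0.08 without them, and it was 0.59 without PBS replicate 2 alone and −0.55 without Ang II replicate 2 alone. Plk1 stood at 14.99, 49.2 and 16.9 CPM after PBS and 12.2, 45.7, 17.8 and 26.3 CPM after Ang II, and Cdk1 at 24.8, 74.4 and 25.2 CPM and 14.4, 62.6, 32.3 and 29.5 CPM. In both genes replicate 2 was the highest library on each side, and the rest overlapped. The difference between the responses of Il27ra−/− and Il27ra+/− LT-HSC was tested directly: edgeR called 0 of 10 members and 0 of 16365 genes (0%), 0 members had an unadjusted p under 0.05, and DESeq2 called 0 members and 0 genes. Its median over the members was 0.18 with all libraries, 0.47 without both numbered 2, 0.93 without the PBS one alone and −0.30 without the Ang II one alone. With all libraries the largest estimate was Birc5 at 0.79 ± 0.62 (edgeR adjusted p = 1), and without both it was Bub1 at 0.91 ± 0.50 (adjusted p = 1), with Birc5 at 0.78 ± 0.42.

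**Figure D3:**
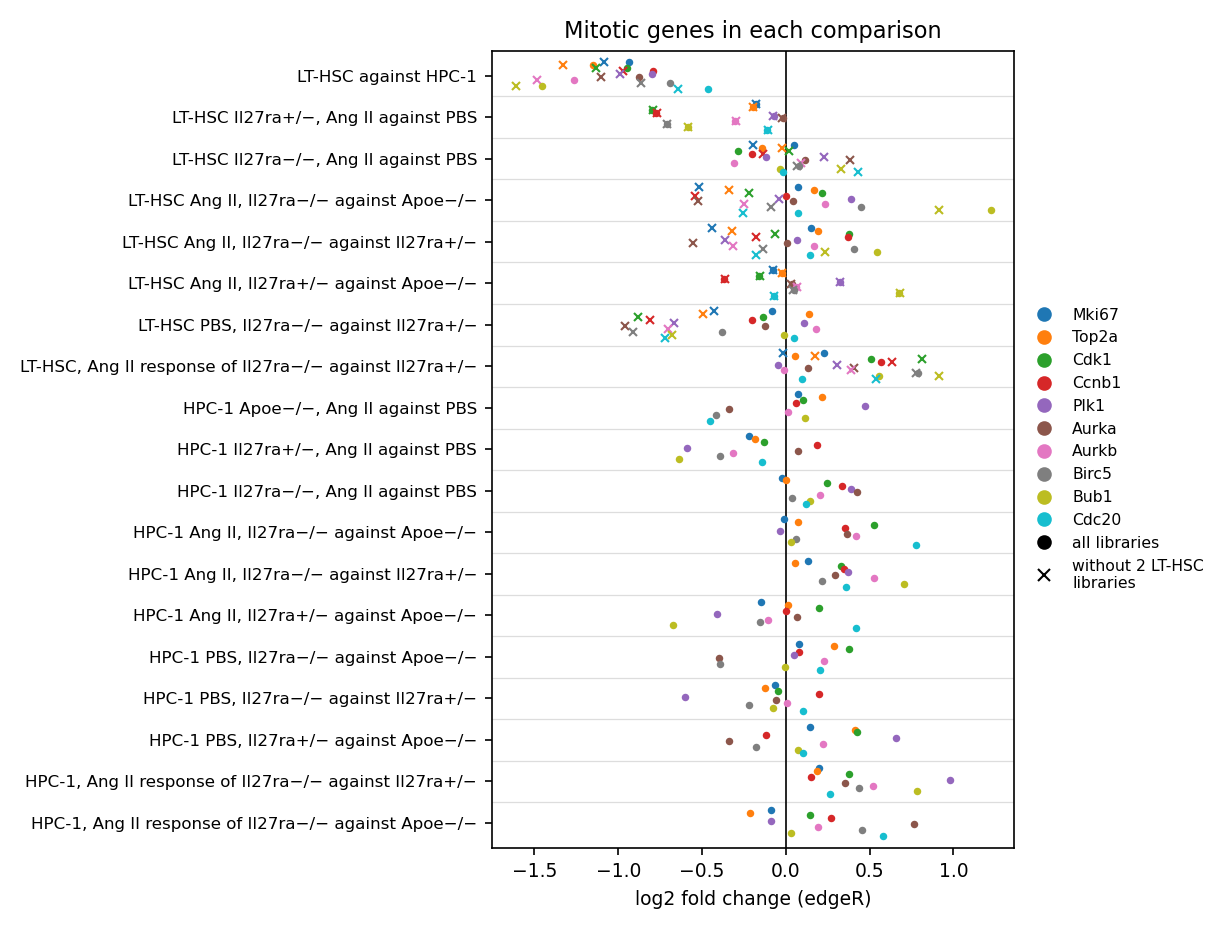
Log2 fold change (edgeR) of each of the 10 mitotic genes in the comparisons between and within cell types, with WT written as Apoe−/−. Dots use all libraries, and crosses leave out the Il27ra−/− LT-HSC libraries numbered 2. In LT-HSC against HPC-1 all 10 lie below 0, the dots between −1.46 and −0.47 and the crosses between −1.61 and −0.64, whereas within the cell types the dots and crosses lie between −0.96 and 1.22, on both sides of 0 in some comparisons and all on 1 side in others, and edgeR called 0 of them.

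In HPC-1, where no library stood apart by the markers of LT-HSC and HPC-1, again no mitotic gene was called. The mean log2 CPM of the 10 genes was 6.60 ± 0.27 (SD, n = 2) in PBS WT, 6.74 ± 0.09 (n = 3) in PBS Il27ra+/− and 6.65 ± 0.08 (n = 3) in PBS Il27ra−/−. After Ang II it was 6.54 ± 0.25 (n = 3) in WT, 6.48 ± 0.34 (n = 4) in Il27ra+/− and 6.82 ± 0.43 (n = 4) in Il27ra−/−. The spread was wider after Ang II than after PBS in Il27ra+/− and Il27ra−/−, with the highest values in Ang II Il27ra−/− replicates 2 and 3 (7.14 and 7.20) and the lowest in Ang II Il27ra+/− replicate 3 (6.16). The 11 comparisons came from 1 edgeR model of the 19 HPC-1 libraries, over 13199 genes.

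Ang II Il27ra−/− against Ang II WT HPC-1 compared 4 with 3 libraries. edgeR called 0 of 10 members and 0 of 13199 genes (0%), 1 member had an unadjusted p under 0.05, as had 5.01% of all genes, and DESeq2 called 0 members and 2 genes. That member was Cdc20, at 31.1, 41.9 and 12.1 CPM in WT and 35.2, 61.2, 63.7 and 39.5 CPM in Il27ra−/−. WT replicate 3 was far below all others, replicates 2 and 3 of Il27ra−/− were above all WT libraries, and the rest overlapped. Its log2 fold change was 0.78 ± 0.33 (edgeR adjusted p = 0.954). Cdk1 was at 42.8, 65.0 and 55.5 CPM in WT and 60.6, 111, 94.2 and 53.1 CPM in Il27ra−/−, and differed by 0.52 ± 0.26 (adjusted p = 0.954). The WT libraries held 76.0, 66.3 and 289.5 CPM of intestinal markers, replicate 3 the most of all HPC-1 libraries, against 2.78 to 7.53 CPM in Il27ra−/−, and their part was not tested. The median of the members was 0.21, with 8 of 10 above 0, against 0.00349 over all genes, and it ran from 0.09 (without Il27ra−/− replicate 3) to 0.37 (without WT replicate 2) when 1 library was left out.

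In HPC-1 after Ang II, Il27ra−/− lay above Il27ra+/− in all 10 estimates without any call. edgeR called 0 of 10 members and 0 of 13199 genes (0%), 2 members had an unadjusted p under 0.05, as had 2.84% of all genes, and DESeq2 called 0 members and 0 genes. Bub1 stood at 45.9, 26.0, 20.4 and 32.3 CPM in Il27ra+/− and 43.5, 66.8, 57.7 and 35.0 CPM in Il27ra−/−, with Il27ra+/− replicate 1 above Il27ra−/− replicates 1 and 4, and differed by 0.70 ± 0.31 (edgeR adjusted p = 1). Aurkb stood at 72.3, 55.2, 23.9 and 51.2 CPM and 59.1, 87.3, 82.9 and 61.5 CPM, with Il27ra+/− replicate 3 lowest and Il27ra+/− replicate 1 within the Il27ra−/− range, and differed by 0.52 ± 0.24 (edgeR adjusted p = 1). For Mki67 the libraries read 3204, 2134, 2708 and 1418 CPM in Il27ra+/− and 2126, 3812, 2875 and 1532 CPM in Il27ra−/−, which overlapped throughout (0.13 ± 0.30). The median of the members was 0.34 against −0.01 over all genes, and it fell to 0.16 without Il27ra−/− replicate 3 and to 0.21 without Il27ra−/− replicate 2.

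Ang II Il27ra+/− against Ang II WT HPC-1 gave 5 members above and 5 below 0, with a median of −0.05 against 0.02 over all genes. By edgeR 0 of 10 members were called and 0 of 13199 genes (0%), 0 members had an unadjusted p under 0.05, and DESeq2 called 0 members and 2 genes. Bub1, at 34.1, 45.3 and 67.2 CPM in WT and as above in Il27ra+/−, had the largest estimate at −0.67 ± 0.33 (edgeR adjusted p = 0.666). The Bub1 range overlapped, with Il27ra+/− replicate 1 above WT replicates 1 and 2, and its highest value, 67.2 CPM, came from WT replicate 3, the library with 289.5 CPM of intestinal markers, against 5.48 to 25.2 CPM in Il27ra+/−. Cdc20 lay on the other side, at 0.42 ± 0.33, and its Il27ra+/− libraries at 28.2, 57.0, 26.9 and 43.0 CPM surrounded WT replicates 1 and 2. With 1 library left out the members' median ran from −0.25 (without Il27ra+/− replicate 1) to 0.10 (without Il27ra+/− replicate 4).

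After PBS, HPC-1 was compared between the genotypes, of which WT held 65.3 and 49.8 CPM of intestinal markers and the others 4.07 to 39.0 CPM. In Il27ra−/− against WT, edgeR called 0 of 10 members, beside 2 of 13199 genes (0.0152%), 0 members had an unadjusted p under 0.05, and DESeq2 called 0 members and 25 genes. The 2 genes became 0 without either WT library and 5 without Ang II Il27ra+/− replicate 1. The estimates ran from −0.40 for Aurka to 0.38 for Cdk1, with a median of 0.08 against 0 over all genes. Aurka stood at 39.7 and 49.8 CPM in WT and 29.6, 39.1 and 33.4 CPM in Il27ra−/−, every Il27ra−/− library below both WT libraries, with edgeR adjusted p = 0.885. In Il27ra−/− against Il27ra+/−, edgeR called 0 of 10 members and 0 of 13199 genes (0%), 0 members had an unadjusted p under 0.05, and DESeq2 called 0 members and 0 genes. The largest estimate there was Plk1, at 48.6, 64.7 and 55.1 CPM in Il27ra+/− and 38.6, 24.6 and 47.5 CPM in Il27ra−/−, with every Il27ra−/− library below every Il27ra+/− library and a log2 fold change of −0.60 ± 0.32 (edgeR adjusted p = 1), while the median was −0.06 against −0.01 over all genes. In Il27ra+/− against WT, edgeR called 0 of 10 members and 0 of 13199 genes (0%), 0 members had an unadjusted p under 0.05, and DESeq2 called 0 members and 6 genes. Plk1 was again at the end of the range, at 30.3 and 40.6 CPM in WT and 0.66 ± 0.37 in log2 fold change (adjusted p = 1), and the median was 0.12 against 0.01 over all genes. With 1 library left out these medians ran from −0.02 (WT replicate 1) to 0.31 (WT replicate 2) for Il27ra−/− against WT, from −0.12 (Il27ra−/− replicate 2) to 0.01 (Il27ra+/− replicate 3) for Il27ra−/− against Il27ra+/− and from −0.02 (Il27ra+/− replicate 3) to 0.32 (WT replicate 2) for Il27ra+/− against WT.

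The Ang II response of HPC-1 was measured in each genotype. In WT (3 against 2 libraries) edgeR called 0 of 10 members and 0 of 13199 genes (0%), 0 members had an unadjusted p under 0.05, and DESeq2 called 0 members and 1 gene, with a member median of 0.07 against −0.00166 over all genes. Top2a read 817 and 856 CPM after PBS and 793, 971 and 1116 CPM after Ang II, and Birc5 61.0 and 100.2 CPM and 49.99, 75.8 and 54.2 CPM, both overlapping, with log2 fold changes of 0.22 ± 0.27 and −0.41 ± 0.32. In Il27ra+/− (4 against 3) edgeR called 0 of 10 members and 0 of 13199 genes (0%), 0 members had an unadjusted p under 0.05, and DESeq2 called 0 members and 4 genes, with a median of −0.20. Here Plk1 went from 48.6, 64.7 and 55.1 CPM to 37.3, 45.2, 36.5 and 31.5 CPM, every Ang II library below every PBS library, and differed by −0.59 ± 0.30 (edgeR adjusted p = 1), and Bub1 went from 38.1, 47.5 and 58.8 CPM to 45.9, 26.0, 20.4 and 32.3 CPM with overlap and differed by −0.64 ± 0.33. In Il27ra−/− (4 against 3) edgeR called 0 of 10 members and 0 of 13199 genes (0%), 0 members had an unadjusted p under 0.05, and DESeq2 called 0 members and 1 gene, with a median of 0.17. The Plk1 values of Il27ra−/− were 38.6, 24.6 and 47.5 CPM after PBS and 40.1, 52.2, 69.5 and 32.8 CPM after Ang II, and those of Aurka were 29.6, 39.1 and 33.4 CPM and 34.6, 59.1, 60.3 and 30.1 CPM. Both overlapped, with log2 fold changes of 0.39 ± 0.30 and 0.43 ± 0.29. Without single libraries the medians ran from −0.08 (PBS replicate 1) to 0.20 (Ang II replicate 1) in WT, from −0.41 (Ang II replicate 1) to −0.10 (Ang II replicate 3) in Il27ra+/− and from 0.02 (Ang II replicate 2) to 0.29 (PBS replicate 3) in Il27ra−/−.

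The differences between these responses were tested themselves. For Il27ra−/− against Il27ra+/−, edgeR called 0 of 10 members and 0 of 13199 genes (0%), 1 member had an unadjusted p under 0.05, as had 1.28% of all genes, and DESeq2 called 0 members and 0 genes. That member was Plk1, whose levels are given above, with a difference of 0.98 ± 0.43 (edgeR adjusted p = 1). All 10 estimates were above 0, with a median of 0.37 against 0.01 over all genes, which fell to 0.18 without Ang II Il27ra−/− replicate 2 and to 0.20 without Ang II Il27ra−/− replicate 3. For Il27ra−/− against WT, edgeR called 0 of 10 members and 0 of 13199 genes (0%), 0 members had an unadjusted p under 0.05, and DESeq2 called 0 members and 0 genes. The median of that difference was 0.17, from 0.00359 (without Ang II Il27ra−/− replicate 2) to 0.33 (without Ang II WT replicate 2), and Aurka had the largest estimate at 0.76 ± 0.45 (adjusted p = 1). The standard errors of the members had a median of 0.395 for the first difference and 0.434 for the other.

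The 10 genes varied together between libraries. Over all 36 libraries the median Pearson correlation of log2 CPM among the 45 pairs of members was 0.77, from 0.45 for Mki67 with Cdc20 to 0.94 for Mki67 with Top2a, and these points share the contrast of the cell types. Within the 17 LT-HSC libraries the median was 0.71, from 0.14 for Aurka with Bub1 to 0.94 for Mki67 with Top2a. Leaving out the Il27ra−/− libraries numbered 2 lowered it to 0.52 over 15 libraries, with Aurka and Bub1 at −0.27 and Mki67 and Top2a at 0.93. Within the 19 HPC-1 libraries it was 0.46, from −0.25 for Mki67 with Cdc20 to 0.81 for Aurkb with Cdk1. The pair Mki67 and Top2a thus kept close in LT-HSC. In HPC-1, Cdc20 had the lowest correlation of the 10 with their mean, at 0.40. Against the mean of all 10, which contains the gene itself, Top2a had the highest correlation over the 36 libraries (0.95) and Cdc20 the lowest (0.68). The mean had a correlation of 0.02 with the log10 of the total counts over 36 libraries. It was 0.09 within the 17 LT-HSC libraries, −0.02 within the 15 and −0.15 within the 19 HPC-1 libraries.

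Among all other genes that passed the filter, those whose log2 CPM was most like the mean of the 10 over the 36 libraries were Ncapd2, Ncapg, Ccna2, Tacc3, Cenpf, Knl1, Brip1, Kif23, Tpx2 and H2afx, with Pearson correlations from 0.94 down to 0.92. Ncapd2 and Ncapg encode subunits of condensin, Ccna2 cyclin A2, and Cenpf and Knl1 proteins of the kinetochore. Within the 17 LT-HSC libraries the nearest were H2afx (0.94), Cenpf (0.93), Ccna2 (0.92), Kif23 (0.91) and Ncaph (0.90), and without the Il27ra−/− libraries numbered 2 Cenpf (0.88), Aspm (0.87) and H2afx (0.86). Within the 19 HPC-1 libraries they were Hmgb1 (0.84), Cdca8 (0.82), Ube2c (0.80), Spc24 (0.80) and Ncapg (0.79). In each of these sets all genes were read in the same libraries, which differed in depth and, over the 36, in cell type. For these likenesses no p is given.

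Other genes of mitosis, listed by their role, followed the same direction between LT-HSC and HPC-1. Of 11 further kinases, phosphatases and checkpoint genes, 9 were called lower, with a median log2 fold change of −0.89 (−1.04 without the Il27ra−/− LT-HSC libraries numbered 2) against −0.01 over all genes, of which 3467 of 18013 were called lower and 35.7% in either direction. The largest fitted value was that of Cdc25c, a phosphatase that switches Cdk1 on, at −1.92, on low mean levels of 5.88 CPM in LT-HSC, where its lowest library was at 0, and 10.8 CPM in HPC-1, followed by Ttk at −1.60 on 14.7 and 33.6 CPM, and Bub1b, the checkpoint partner of Cdc20, was at −0.89. Those not called were Cdc25b, a relative of Cdc25c, at −0.01 (adjusted p = 1 in edgeR) and the checkpoint gene Bub3 at −0.25 (adjusted p = 0.0722), which was called without the libraries numbered 2 (adjusted p = 0.0234). All 4 genes of the other mitotic cyclins and Cks subunits were called lower (median −0.89, −1.04 without those libraries), from Cks2 at −1.17 to Ccnb2 at −0.55. Of 8 genes of the anaphase-promoting complex and of cohesion, 6 were called lower (median −0.62, −0.72 without those libraries), among them Sgo2a, a protector of cohesin, at −1.32. The exceptions were Fzr1, which takes the place of Cdc20 at the complex after anaphase, at −0.04, and Pttg1, which encodes the separase inhibitor securin, at 0.56 (edgeR adjusted p = 0.0569).

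The structural partners were lower as a whole, again beside 3467 of 18013 genes called lower. Both other genes of the passenger complex were called lower, Incenp at −0.76 and Cdca8 at −1.14, beside Aurkb at −1.27 and Birc5 at −0.69. All 8 kinetochore and centromere genes were called lower (median −0.94, −1.08 without the libraries numbered 2), from the motor gene Cenpe at −1.12 to Nuf2 at −0.76. All 12 genes of the spindle and its motors were (median −0.84, −0.98 without them), from Kif20a at −1.47 to Ckap2 at −0.46, as were all 6 of cytokinesis (median −0.84, −1.0 without them), led by Ect2, which places the cleavage furrow, at −1.82, and all 5 of condensin (median −0.90, −1.03 without them), led by Ncaph at −1.24. The transcription factors that switch such genes on, Foxm1 and Mybl2, were called lower at −0.64 and −1.32. Genes of the G1/S transition and DNA replication behaved alike, with 19 of 20 called lower and a median of −0.91, from Gins1 at −1.40 to Tk1 at −0.27, the one not called (edgeR adjusted p = 0.109), and with 20 of 20 called and a median of −1.03 without the libraries numbered 2 (Tk1 adjusted p = 0.0183). Genes that hold the cycle back split: Cdkn1c, which encodes the inhibitor p57, rose by 3.45, Txnip by 1.71 and Rbl2 by 0.43 in LT-HSC, whereas Cdkn1a, which encodes p21, was lower at −1.80, Ccng2 at −0.85 and Cdkn2c at −0.76, and 3 of the 9 were not called (Cdkn1b, Btg2 and Foxo3). Over these 9 the median was −0.02 with and without the libraries numbered 2. The values of Cdkn1c and Cdkn1a stood on low mean levels. Cdkn1c was at 15.6 CPM in LT-HSC and 1.70 CPM in HPC-1, where its lowest library was at 0. Cdkn1a was at 2.17 CPM in LT-HSC, where its lowest library was at 0, and 7.59 CPM in HPC-1. Within LT-HSC after Ang II, edgeR called 0 genes of the other lists of mitosis in Il27ra−/− against WT or in Il27ra+/− against WT, and without the Il27ra−/− libraries numbered 2 it called 1 of 8 kinetochore genes (Cenpe) and 2 of 20 G1/S genes (Mcm2 and Mcm3) lower in Il27ra−/−, and 1 of 4 cyclin and Cks genes (Cks2) higher and 1 of 20 G1/S genes (Mcm3) lower in Il27ra+/−. Of the 9 genes that hold the cycle back, 1 was called, Ccng2, higher in Il27ra−/− (log2 fold change 2.65 ± 0.40, edgeR adjusted p = 0.00257) and in Il27ra+/− (2.61 ± 0.40, adjusted p = 0.00356) than in WT, and also without the libraries numbered 2 (2.61 in both). Their median was 0.54 in Il27ra−/− and 0.42 in Il27ra+/− with all libraries, against 0.14 and 0.09 over all genes. These genes were named after their values were seen, and the same comparisons called 1.69% and 0.831% of all genes, or 4.4% and 2.2% without the libraries numbered 2. In both comparisons the WT side was the pair of libraries with intestinal markers, of which 8 of 11 were called lower than in WT. The part of these markers was not tested.

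Markers of either cell type differed along with the mitotic genes between LT-HSC and HPC-1. All 9 LT-HSC markers were called higher and all 8 HPC-1 markers lower in LT-HSC, and over the 36 libraries the mean of the 10 mitotic genes had a Pearson correlation of −0.85 (Spearman −0.79) with the mean log2 CPM of the LT-HSC markers. That correlation was −0.74 in the 17 LT-HSC libraries, −0.55 in the 15 and −0.20 in the 19 HPC-1 libraries. For the HPC-1 markers it was 0.83 over the 36 libraries and 0.59 in the 17, but −0.26 in the 15 and 0.07 in the 19 HPC-1 libraries. Granulocyte markers had a correlation of 0.55 over the 36, −0.34 in the 15 and 0.49 in the 19 HPC-1 libraries, and megakaryocyte markers of −0.80, 0.48 and −0.35. The counts of markers called below stand beside 35.7% of all genes called, 3467 lower and 2968 higher of 18013. Of 6 megakaryocyte markers 5 were called higher in LT-HSC, with summed levels of 507 to 2093 CPM (median 1016) in the 15 LT-HSC libraries, 91.2 CPM in PBS and 371 CPM in Ang II Il27ra−/− replicate 2, and 60.7 to 147 CPM (median 94.6) in HPC-1, where Itga2b was most abundant and Ppbp was at 0 in 17 of the 19. Of 8 granulocyte markers 3 were called lower in LT-HSC, with summed levels of 29.1 to 1249 CPM (median 44.1) in the 15 LT-HSC libraries and 226 to 1219 CPM (median 689.7) in HPC-1. Ang II Il27ra−/− LT-HSC replicate 2 held 7076 CPM of them, with S100a9 at 2182 CPM and none of the 8 at 0, and 2861 CPM of erythroid markers, and PBS Il27ra−/− LT-HSC replicate 2 held 472 CPM of granulocyte markers, with Prtn3 most abundant at 204 CPM. Of 9 erythroid markers 1 was called higher in LT-HSC (2 without the Il27ra−/− libraries numbered 2), with summed levels of 20.1 to 3081 CPM (median 84.3) in the 15 and 10.6 to 605 CPM (median 113) in HPC-1. In PBS Il27ra−/− LT-HSC replicate 3, the richest of the 15 in granulocyte and erythroid markers, the mean log2 CPM of the mitotic genes was 5.18. In Ang II Il27ra−/− LT-HSC replicate 2 that mean was 6.74. Of 3 B-lymphoid markers tested 1 was called lower, of 11 intestinal markers, which summed to 206 CPM in the PBS WT LT-HSC library, 2 were called higher and of 4 Y-linked genes none was called (edgeR, and their part in the levels of the mitotic genes was not tested, nor that of the other lists).

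Because the 10 genes moved together between the cell types, their promoters were read for the short motifs that the promoters of many genes of late cell cycle phases carry. RefSeq promoter windows of 300 bases, from 250 before to 50 after the start of the gene, matched 9 of the 10 members in build GRCm38.p6, and Aurkb was the one without an entry. The motifs were TTTGAA and TTCGAA, together known as the cell cycle genes homology region (CHR), and CCAAT, each read on both strands, where TTTGAA appears as TTCAAA and CCAAT as ATTGG and TTCGAA is its own reverse. A CHR was found in 7 of the 9 windows (77.8%), against 19.2% of all 32851 promoter windows, and CCAAT in 8 of 9 (88.9%), against 37.4%. Both were present in 7 of 9, against 7.52% of all windows, and 7 of 9 held more than 1 CCAAT, against 11.7%. Of 52 windows of the other listed genes of mitosis 75% held a CHR and 69.2% CCAAT, and of 18 windows of the listed G1/S genes 16.7% held a CHR and 66.7% CCAAT, so that both lists shared the excess of CCAAT over all windows. Among the members Top2a held 4 CHR and 6 CCAAT, Mki67 and Cdk1 2 and 3 each, Cdc20 and Aurka 1 and 2 each, Bub1 1 CHR (TTCGAA) and 2 CCAAT, and Plk1 1 of each. Ccnb1 held 2 CCAAT and no CHR, and Birc5 held neither in its window. A match is a description of the sequence and shows no binding.

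The windows shown are those of the members with the largest and the smallest log2 fold change, Bub1 (chr2:127831810-127832109, minus strand) and Cdc20 (chr4:118437294-118437593, minus strand), of the member with the most motifs, Top2a (chr11:99024140-99024439, minus strand), of the mitotic kinase Cdk1 (chr10:69352863-69353162, minus strand) and of Birc5 (chr11:117848987-117849286, plus strand), which held none. They are RefSeq sequence of GRCm38.p6, written from 5′ to 3′ on the strand of the gene, with the motifs on either strand in capitals.
Bub1: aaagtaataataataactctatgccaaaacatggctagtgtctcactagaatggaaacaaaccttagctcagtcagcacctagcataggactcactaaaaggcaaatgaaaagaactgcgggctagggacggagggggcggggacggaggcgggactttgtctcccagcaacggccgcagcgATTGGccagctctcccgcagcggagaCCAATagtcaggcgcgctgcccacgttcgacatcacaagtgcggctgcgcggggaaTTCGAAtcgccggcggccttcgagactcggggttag
Cdc20: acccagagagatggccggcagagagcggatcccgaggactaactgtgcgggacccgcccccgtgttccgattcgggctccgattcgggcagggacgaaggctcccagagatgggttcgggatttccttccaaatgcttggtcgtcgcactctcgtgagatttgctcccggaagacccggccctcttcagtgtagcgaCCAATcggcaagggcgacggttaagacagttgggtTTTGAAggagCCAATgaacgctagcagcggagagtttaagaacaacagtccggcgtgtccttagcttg
Top2a: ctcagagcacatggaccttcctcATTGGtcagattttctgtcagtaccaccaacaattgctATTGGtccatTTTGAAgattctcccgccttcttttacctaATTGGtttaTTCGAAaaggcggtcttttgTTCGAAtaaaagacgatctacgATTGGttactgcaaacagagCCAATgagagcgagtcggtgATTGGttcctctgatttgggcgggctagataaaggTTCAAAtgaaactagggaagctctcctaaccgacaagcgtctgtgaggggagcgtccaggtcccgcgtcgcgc
Cdk1: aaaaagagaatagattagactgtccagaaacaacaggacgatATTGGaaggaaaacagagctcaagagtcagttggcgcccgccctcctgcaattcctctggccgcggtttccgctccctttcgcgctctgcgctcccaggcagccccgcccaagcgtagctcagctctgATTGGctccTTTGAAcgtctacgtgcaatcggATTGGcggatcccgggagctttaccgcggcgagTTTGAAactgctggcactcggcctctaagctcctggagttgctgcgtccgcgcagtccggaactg
Birc5: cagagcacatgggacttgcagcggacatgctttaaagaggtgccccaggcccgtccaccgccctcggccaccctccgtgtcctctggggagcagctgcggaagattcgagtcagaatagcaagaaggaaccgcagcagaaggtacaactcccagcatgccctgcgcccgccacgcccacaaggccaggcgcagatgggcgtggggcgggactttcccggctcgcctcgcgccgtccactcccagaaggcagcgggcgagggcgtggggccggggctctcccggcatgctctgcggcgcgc

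In the mm10 annotation the members lie on 6 chromosomes and are not clustered. Chromosome 11 carries Top2a (chr11:98992943-99024189), Aurkb (chr11:69045647-69051664) and Birc5 (chr11:117849251-117855743), chromosome 7 Mki67 (chr7:135689784-135716361) and Plk1 (chr7:122159439-122169873), and chromosome 2 Aurka (chr2:172356190-172370535) and Bub1 (chr2:127801122-127831865). Cdk1 lies at chr10:69335146-69352938, Cdc20 at chr4:118432901-118437352 and Ccnb1 at chr13:100778650-100786570. Processed pseudogenes, transcript copies elsewhere in the genome, match 6 members at 90% identity or more over at least 200 bases, and the authors' counting could have split reads between them and the members. Ccnb1, with 6520 counts over the 36 libraries, has near-identical copies, of which Ccnb1-ps (99.2% identical over 1287 bases) held 40 counts and Gm12856 (98.1%) held 54. Plk1, with 4513 counts, has Plk-ps1 (93.5% over 1813 bases) with 412 counts, and Cdc20, with 4800 counts, has Gm7856 (93.7%) with 18. Shorter matches join Mki67 to Gm44521 (98.6% over 216 bases), Top2a to Gm5362 (90.5% over 346 bases) and Birc5 to Gm48337 (92.7% over 205 bases), for which the count table has no entry. Of other kinds of gene, Birc5 matches the noncoding Gm14963 (90.1% over 202 bases, 93 counts), and Top2a matches Dynlt1c, Dynlt1f and Dynlt1a (90.3 to 90.7% over 248 bases), with 3332, 2237 and 534 counts beside 92566 for Top2a. Exons of Cdc20 share 53 bases with Elovl1 on the opposite strand, which held 4146 counts, those of Plk1 share 156 bases with Gm44985, also on the opposite strand, and those of Top2a share 122 bases with the small RNA gene Gm23451 on its own strand, which held 6. The strand setting of the counting is not given in the sources used here, so reads of the overlapping bases cannot be told apart.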

How the data were processed

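The deposited table holds expected counts per gene, which the authors made by aligning stranded total-RNA reads and counting them with RSEM, and the values are whole numbers as deposited. The submitters' notes name Bowtie2 and RSEM 1.2.31, whereas the paper names STAR and RSEM 1.2.12, and the difference could not be settled from the counts. All 36 columns were used, grouped by cell type, agent and genotype per the labels, with 1980283 to 6861078 counts per library.

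Counts were filtered with filterByExpr, scaled by the trimmed mean of M values and tested in edgeR 4.0.16 (robust quasi-likelihood, R 4.3.3), 1 model for both cell types and 1 within each. Benjamini-Hochberg adjustment ran over all genes tested, with a threshold of 0.05, and each standard error is the size of the log2 fold change divided by the square root of F. Log2 CPM used a prior count of 2. Alternatives were DESeq2 1.42.0, upper-quartile scaling, no filter, the compared groups alone, a Y-linked covariate, a replicate block, only libraries under 4 × 10⁶ counts, and leaving libraries out. The code was tested on simulated data. The 10 members are named throughout, lists are given as counts and medians with genes at their ends, the most abundant and exceptions named, and members and lists were chosen with earlier results of these data known. Copies were searched with BLAST 2.17.0 at 90% identity or more, and motifs were counted with Python 3.11.15.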

Additional observations from a re-analysis of the deposited data

Results flagged for a closer look

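Aurka in Ang II Il27ra+/− LT-HSC replicate 1 stood far from its group, at 35.8 CPM against 14.6, 15.5 and 15.9 CPM in replicates 2 to 4. On the log2 CPM scale the gap to the nearest sample, divided by the range of the group, was 0.903, above the limit of the Dixon test for 4 samples. Chance marks about 1 in 20 groups, so of the 40 pairs of gene and group tested 2 would be expected, and 1 was found. The same library was the highest of its group also for Mki67 (1790.4 CPM), Top2a (488 CPM), Plk1 (41.0 CPM), Birc5 (41.0 CPM) and Cdc20 (35.4 CPM) but the lowest for Cdk1 (20.7 CPM) and Ccnb1 (23.1 CPM). None of the 3 differences between responses tested for each gene passed the threshold.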

How the results depend on the processing

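In LT-HSC against HPC-1 the direction of all 10 members held in every alternative, and 9 of them kept their call in all 43. Cdc20 kept its call in 15 of 43 and lost it with DESeq2 (log2 fold change −0.39, adjusted p = 0.0812), upper-quartile scaling (−0.42, 0.0682) and only libraries under 4 × 10⁶ counts (−0.47, 0.0947), and in 25 of the 36 fits without 1 library. The members called were thus 9 to 10, their median was −1.0 to −0.82 without 1 library and −1.09 to −0.81 otherwise, and all genes called were 6058 to 6671 and 5254 to 7038. Within the cell types the members called were 0 in every alternative.

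The count of all genes called was less stable than the members. In Ang II LT-HSC, Il27ra−/− against WT, the 277 became 790 with DESeq2, 833 without the filter, 181 with the Y-linked covariate, 713 without the Il27ra−/− libraries numbered 2, 29 with libraries under 4 × 10⁶ counts and 32 in the compared groups alone, and 98 to 627 without 1 library. In Il27ra+/− against WT the 136 became 436, 496, 75, 357, 16 and 37 in the same order, and 53 to 565. In PBS HPC-1, Il27ra−/− against WT, the 2 became 25 with DESeq2, 52 without the filter, 9 with the covariate, 8 with libraries under 4 × 10⁶ counts and 28 in the compared groups alone, and 0 to 5 without 1 library. Counts of 0 rose most without the filter, to 249 in LT-HSC (Ang II, Il27ra−/− against Il27ra+/−) and to 33 in HPC-1 (Ang II, Il27ra+/− against WT). The median of the members moved by more than the spread between libraries (SD 0.452) only in LT-HSC. Without the libraries numbered 2 it moved as given above. With libraries under 4 × 10⁶ counts it moved to 0.62 (Il27ra−/−, Ang II against PBS), −0.75 (PBS, Il27ra−/− against Il27ra+/−) and 1.3 (difference of the responses). In each of these the PBS Il27ra−/− group was replicate 1 alone. The limit of 4 × 10⁶ counts also left out every library with high Xist and no Ddx3y, listed further below. Only PBS Il27ra+/− LT-HSC replicate 2 of that kind remained. Depth and sex therefore cannot be told apart in this alternative, for Cdc20 as well as for these medians and counts. The cause of these moves was not tested.

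Equal replicate numbers were not taken to pair the samples: Y-linked genes differed in 4 of 17 pairs of LT-HSC and HPC-1 with the same number, and the correlation of their deviations ran from −0.197 to 0.317, with 7 of 16 over 0.1. For libraries of equal number in different groups of 1 cell type it ran from −0.199 to 0.293 in LT-HSC, with 8 of 27 over 0.1, and from −0.109 to 0.477 in HPC-1, with 7 of 41. With the replicate block 10 members and 7038 genes were called between the cell types (member median −0.93), 0 members within them, and the 277, 136 and 2 genes became 97, 39 and 7. Between the cell types this block paired libraries of equal agent, genotype and number, and within a cell type it was the number alone.

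Groups of 1 to 4 libraries detect only large differences, a p above the threshold does not show equal levels, and where a fit left 1 library in a group it was assumed to vary like the others. For some members all libraries of a group lay below or above those of another. The share of all genes that did so is not given here, so such a separation is a description of the values only.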

Other observations

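Genes of the sex chromosomes divided the libraries. In 12 libraries Xist stood at 3531 to 4580 CPM with Ddx3y at 0 counts, or 1 count in PBS Il27ra+/− LT-HSC replicate 2: LT-HSC PBS Il27ra+/− replicates 2 and 3, PBS Il27ra−/− replicates 2 and 3, Ang II Il27ra+/− replicates 3 and 4 and Ang II Il27ra−/− replicates 3 and 4, and HPC-1 PBS Il27ra+/− replicate 3, PBS Il27ra−/− replicate 3, Ang II Il27ra+/− replicate 4 and Ang II Il27ra−/− replicate 4. In the other 24, which include every WT library, Xist stood at 0 to 71.8 CPM and Ddx3y at 38.8 to 129.8 CPM. Each comparison of another genotype with WT, in LT-HSC and in HPC-1, was thus confounded in part with sex. The paper used mouse gender as a factor in its tests, whereas the main models here had none. Apoe, deleted in all mice, was counted at 0 to 27.4 CPM.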
